A study of Mus musculus with 4 samples.

Results

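The regions described here are 3971 stretches of messenger RNA in mouse cerebral cortex where a peak of reads from m6A immunoprecipitation was found in mice with repetitive mild traumatic brain injury (rmTBI), while no peak was found at the same place in sham mice. They were chosen from the 33977 deposited peaks as those of the rmTBI set that lie in coding sequence or a 3′ untranslated region (3′ UTR) and share no base on the same strand with any peak of the sham set. They are called rmTBI-only peaks below. The other 10504 coding and 3′ UTR peaks of the rmTBI set met a sham peak and are called shared, and 5535 coding and 3′ UTR peaks of the sham set met no rmTBI peak and are called sham-only. The choice used the authors' peak calls in these same libraries, so every rmTBI against sham value at the chosen peaks is a description and not independent evidence of a change.

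The study examined RNA methylation in the cortex of mice with rmTBI. Of its libraries, 2 are labelled sham and 2 rmTBI, with the numbers 0 and 1 in each group. All 4 carry an antibody against m6A, and total RNA was extracted from cortex with TRIzol. Nothing in the labels says that the libraries came from separate mice, so a p-value here reflects how these particular libraries vary, and that variation may be technical. The sources used here give no strain, age, injury schedule or time after injury, and do not say what 0 and 1 stand for; the experiment with a METTL3 inhibitor was not analysed here. No library labelled as RNA without immunoprecipitation was analysed. With the numbers unexplained, a test of the groups cannot tell the amount of a transcript from the methylated share of it.

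N6-methyladenosine (m6A) is a methyl group that a complex built around METTL3 and METTL14 adds to adenosines in messenger RNA. It is found mostly near stop codons, in 3′ UTRs and in long internal exons, in a short sequence context that often reads GGACT. Reader proteins of the YTH family bind it and affect how long a transcript lasts and how well it is translated, and in the brain it has been tied to neuronal development, synaptic function and memory. In the assay, RNA is broken into fragments, pulled down with the antibody and sequenced, and a peak is a stretch where the fragments pile up.

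The reference held sequence under a small part of the peaks. RefSeq windows around gene starts (build GRCm38.p6) covered at least 60 bases of 32 separate rmTBI-only coding peaks of 300 bases or less that lay on their gene's strand. The 4 runs of 30 bases given here show the GGACT context, in capitals, inside such peaks, 5′ to 3′ on the peak's strand.
Fat4: agcagcccccagGGACTctggtgggcacca
Ank2: gagcatgccagaGGACTgtcccattcaaga
Rbm7: agcctaggcctgGGACTggaacagcgcgga
Dcaf12l1: tttatctccaacGGACTcgtcgctcaaggc
The run in Fat4, an atypical cadherin, is chr3:38887120-38887149 on the plus strand. The run in Ank2, which encodes the membrane scaffold ankyrin-B, is chr3:126943598-126943627 on the minus strand. The run in Rbm7, part of a nuclear RNA surveillance complex, is chr9:48495252-48495281 on the minus strand. The run in Dcaf12l1 is chrX:44790164-44790193 on the minus strand.

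GGACT, searched on the peak's strand only, was found in 6 of the 32 covered stretches of rmTBI-only peaks (18.8%) and in 7 of 29 of shared peaks (24.1%). The covered stretches had a median of 117 and 122 bases. In all 32851 promoter windows, searched over their last 117 bases on the gene's strand, 3854 (11.7%) held it. These counts are small and describe the letters in the covered windows only. Beside these letters, the coding peak of Ank2 (212 bases wide) had 56.8 and 52.3 CPM (read counts relative to the library's total, scaled by TMM) in sham 0 and rmTBI 0. It had 35.9 and 35.2 CPM in sham 1 and rmTBI 1. Its sham and rmTBI libraries thus overlapped, and the 0 and 1 libraries did not. At the coding peak of Rbm7 there were 6.20 and 5.004 CPM in sham 0 and rmTBI 0 and 3.37 and 4.39 CPM in sham 1 and rmTBI 1, a lower value in rmTBI in the first pair and a higher one in the second.

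The libraries held 14437317 counts over all peaks in sham 0, 26356562 in sham 1, 13753600 in rmTBI 0 and 26888072 in rmTBI 1. They went together by number rather than by group. Over all peaks, the Pearson correlation of log2(CPM + 0.5) was 0.98 between both 0 libraries and 0.98 between both 1 libraries, against 0.97 between both sham and 0.97 between both rmTBI libraries. The median absolute log2 difference was 0.22 and 0.18 within a number and 0.34 and 0.36 within a group. If the numbers mark different kinds of library and not replicates, a test of the groups mixes those kinds; the labels do not settle this, and it was not tested. Values are therefore given for every library or for each number. Each number compares 1 rmTBI library with 1 sham library, and whether both numbers repeat the same comparison is not known.

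Of the rmTBI-only peaks, 2062 (51.9%) were coding and 1909 (48.1%) were in 3′ UTRs, while 56.8% of the shared peaks were coding. They lay in 3245 genes: 2663 genes had 1 such peak, 472 had 2, 83 had 3 and 27 had 4 or more. By RefSeq, 3216 of these genes are protein coding (3140 symbols matched directly, 85 through a synonym and 20 not at all). The rmTBI-only peaks had a median width of 211 bases (25% to 75%: 152 to 361). The median was 418 for the shared peaks and 241 for the sham-only ones, so narrow peaks were not particular to the rmTBI set. Coding rmTBI-only peaks had a median width of 242 bases and 3′ UTR ones 182, against 541 and 331 for shared peaks of the same classes. Widths run from first to last base with introns included. More than 5000 bases were spanned by 265 rmTBI-only peaks (6.67%), 11.2% of the shared and 8.71% of the sham-only ones.

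Along the RefSeq span of their gene, coding rmTBI-only peaks had a median position of 66.2% from the start, and shared coding peaks 65.2%. The first 10% of the span held 13.4% of the coding rmTBI-only peaks, 9.19% of the shared and 13.6% of the sham-only ones. In 3′ UTRs, the medians were 96.5% and 95.4%. The last 10% of the span held 76.3% of the rmTBI-only, 70.0% of the shared and 73.7% of the sham-only 3′ UTR peaks. The 3′ UTR peaks of each kind were thus near the gene's end, as their class implies. Of 3115 rmTBI-only peaks whose gene's strand the reference gave, 87 (2.79%) carried the opposite strand. The share was 1.95% of the shared and 2.75% of the sham-only peaks. In the whole table, 122 pairs of rows on opposite strands covered each other by at least 95%, and in 119 of them the counts in sham 1 differed by at most 10%, so that counts at a place hardly depended on the strand named.

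The distance to the nearest sham peak on the same strand had a median of 3689 bases (25% to 75%: 417 to 45574), and 248 rmTBI-only peaks (6.25%) lay within 100 bases of one. A further 564 (14.2%) lay 100 to 300 bases away, and the farthest was 3281944 bases away. On the opposite strand, 44 rmTBI-only peaks (1.11%) overlapped a sham peak. In 66.9% of the 3245 genes there was a sham peak elsewhere in the gene, and 1074 genes had none. Also, 1148 genes held a sham-only peak as well as an rmTBI-only one, which is 35.4% of the rmTBI-only genes and 26.8% of the 4291 sham-only genes. At the edge of the rule, the 3′ UTR peak of Tmem126b (a mitochondrial complex I assembly factor), that of Ninj1 (a membrane protein of plasma membrane rupture) and the coding peak of Pfdn1 (a prefoldin chaperone subunit) were each 27 bases from a sham peak. The Tmem126b peak had 2.21 and 2.60 CPM in sham 0 and sham 1 and 1.06 and 2.91 CPM in rmTBI 0 and rmTBI 1. Just outside the rule, a coding peak of Grm8 (a metabotropic glutamate receptor), one of Xpc (a DNA damage sensor) and a 3′ UTR peak of Ccer2 shared 2 bases with one. That Grm8 peak had 2.85 and 1.94 CPM in sham 0 and sham 1 and 1.97 and 3.20 CPM in rmTBI 0 and rmTBI 1. Tmem126b and the peaks of Grm8, Xpc and Ccer2 were thus below sham in the 0 pair and above it in the 1 pair. Those of Ninj1 (log2 ratios -0.43 and -0.26) and Pfdn1 (-0.27 and -0.16) were below sham in both pairs.

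**Figure D1:**
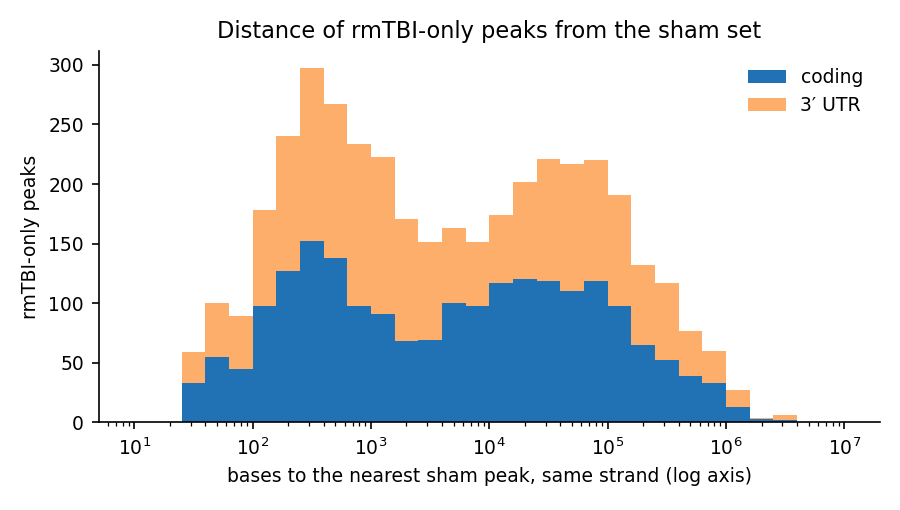
Number of rmTBI-only peaks by distance in bases to the nearest sham peak on the same strand (log axis), with coding and 3′ UTR peaks stacked. Distances cover a wide range around the median of 3689 bases, with one crowd of peaks nearer than the median and another beyond it.

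At the rmTBI-only peaks reads were few. The median peak had 37 counts in sham 0, 55 in sham 1, 26 in rmTBI 0 and 67 in rmTBI 1. Per kilobase of peak, the medians were 8.71, 6.47, 5.99 and 8.15 CPM, against 17.9, 20.1, 17.4 and 20.4 CPM at shared peaks in the same order. At sham-only peaks they were 8.54, 10.03, 10.41 and 8.35 CPM. Levels below those of shared peaks were thus not particular to the rmTBI set. At 0 counts were 8 rmTBI-only peaks in sham 0, 1 in sham 1, 59 in rmTBI 0 and none in rmTBI 1, and 3 counts, the upper limit that a count of 0 allows, are at most 2.18e-05% of a library. Nearly all of these places thus had reads in the sham libraries too, and being called in rmTBI only did not mean being empty in sham. Together the peaks took 3.04% of the counts of sham 0 (95% Wilson interval 3.03 to 3.05%) and 2.08% of sham 1 (2.07 to 2.08%). They took 2.72% of rmTBI 0 (2.71 to 2.73%) and 2.32% of rmTBI 1 (2.32 to 2.33%). These intervals cover counting error only. The rmTBI libraries lay between the sham libraries.

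Set side by side within a number, the rmTBI-only peaks were lower in rmTBI in one pair of libraries and higher in the other. The median log2 ratio of rmTBI 0 to sham 0 (CPM + 0.5) was -0.28, and that of rmTBI 1 to sham 1 was 0.23. At shared peaks the medians were -0.02 and 0.03, and at sham-only peaks they were 0.14 and -0.15, the other way round. Of the 3971 peaks, 2241 (56.4%) were lower in the 0 pair and higher in the 1 pair, and 69 (1.74%) were the reverse. Among shared peaks 21.7% were lower in the 0 pair and higher in the 1 pair. The difference between numbers was not tested, since each group has 1 library of each number.

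**Figure D2:**
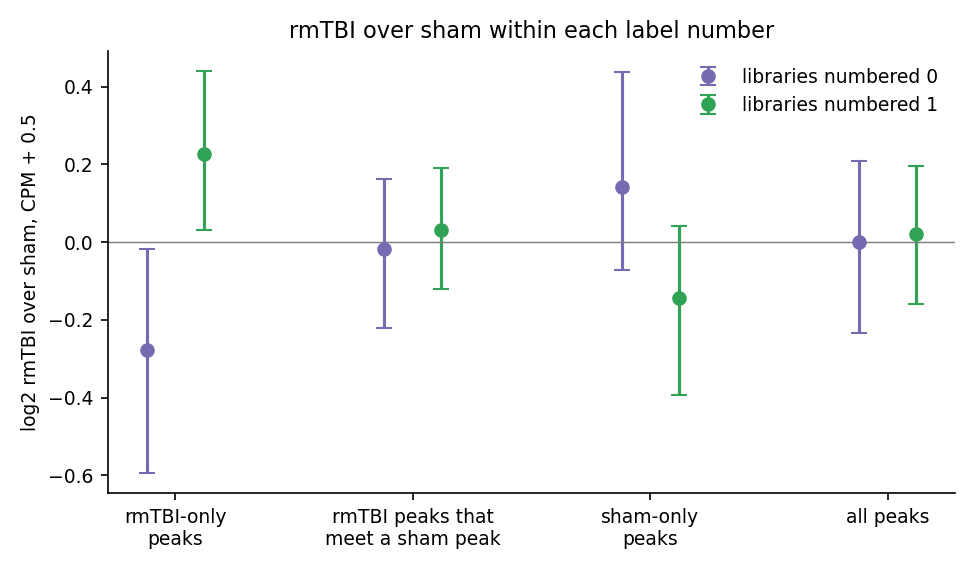
Median (point) and 25% to 75% range over peaks (bar) of the log2 ratio of rmTBI to sham, from CPM + 0.5, for the libraries numbered 0 and those numbered 1. The rmTBI-only peaks have medians of -0.28 and 0.23, the shared peaks lie near 0 in both, and the sham-only peaks have medians of 0.14 and -0.15.

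Seen within a group, the ratio of library 1 to library 0 set these peaks apart. Its median log2 value was -0.43 in sham and 0.18 in rmTBI at rmTBI-only peaks, against 0.06 and 0.13 at shared peaks. It was larger in rmTBI than in sham at 3633 rmTBI-only peaks (91.5%), against 52.2% of all peaks, 57.3% of shared and 20.8% of sham-only peaks. The deposited log2 value had a Pearson correlation over all peaks of 0.99 with the difference between these ratios and of 0.06 with the log2 ratio of the groups' summed counts (peaks are not independent replicates). How the peak calls used the libraries is not stated, and the peaks were called in these libraries, so the pattern is a description. The authors' deposited table gives the rmTBI-only peaks a median log2 value of 0.67, against 0.06 over all peaks, and 92.8% of them a value above 0.

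The difference between the 1 to 0 ratios was wider at peaks with few reads. Its median was 0.80 on the log2 scale in the 993 rmTBI-only peaks with the lowest mean level and 0.26 in the 993 with the highest. The peaks were called in these same libraries and other peaks were not split by level, so this is a description. By width, it was 0.54 under 300 bases, 0.50 from 300 to 5000 bases and 0.16 beyond 5000 bases. It was 0.43 in coding sequence and 0.56 in 3′ UTRs. In genes that had a sham peak elsewhere it was 0.49, and in genes that had none 0.51, so a sham peak elsewhere in the gene made little difference.

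Values at the shared peaks of the same genes are a description too, since a peak is shared only if it was called in both sets. In 961 genes with rmTBI-only but no sham-only peaks, the median over genes of the shared peaks' log2 ratio was -0.02 in the 0 pair and 0.05 in the 1 pair. In 1460 genes with sham-only but no rmTBI-only peaks it was -0.02 and 0.02, and in 3003 genes with neither it was -0.04 and 0.02. In 729 genes with both it was -0.01 and 0.05. The 1 pair's ratio was above 0 in 60.1% of the genes with rmTBI-only but no sham-only peaks and in 52.9% of those with neither. The edgeR log2 fold change had a median over genes of 0.02, 0.01, 0.00 and 0.03 in these 4 kinds of gene.

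In the edgeR quasi-likelihood test of rmTBI against sham, 3787 of the 3971 peaks passed the filter on low counts and 184 did not. This fit holds the group alone and leaves out the label number. None of the 3787 reached an adjusted p under 0.05, against 0.0868% of all peaks tested (29 of 33415). DESeq2 called 3 rmTBI-only peaks (0.0755%, against 0.386% of all peaks), of Ndst4, Drc7 and Rora. At an unadjusted p under 0.05, edgeR put 27 rmTBI-only peaks higher in rmTBI (0.713%, against 0.73% of all peaks) and 37 lower (0.977%, against 2.11% of all peaks). Both rmTBI libraries exceeded both sham libraries at 380 peaks (12.3% of all peaks tested did so), and both were below at 415 (12.3% of all peaks). The median log2 fold change was -0.03, against 0.02 over all peaks, with 1737 peaks higher and 2050 lower. With 1 library left out at a time, the log2 fold change at the Drc7 peak was between -2.73 and -2.08. Leaving out sham 0 moved the median over the rmTBI-only peaks to 0.26, and leaving out sham 1 moved it to -0.28. With the label number as a block in the fit, edgeR called 125 of the 3787 (3.30%, 65 higher and 60 lower). It called 10.6% of all peaks tested. That fit leaves 1 residual degree of freedom, and no label says that a number marks a shared mouse or day. The other edgeR p-values given here come from fits with the group alone.

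Among the 10 peaks higher in rmTBI with the smallest unadjusted p, those of Ndst4 and Ndst3, which encode enzymes that modify heparan sulfate, lay on the same chromosome. The Ndst4 coding peak (chr3:125438611-125561480, plus strand) had 25.7 and 12.9 CPM in sham 0 and sham 1. It had 74.4 and 44.3 CPM in rmTBI 0 and rmTBI 1. Both rmTBI libraries were above both sham libraries, with a log2 fold change of 1.62 (SE 0.41, edgeR adjusted p = 0.633, DESeq2 adjusted p = 0.0217). The Ndst3 coding peak (chr3:123634286-123671527, minus strand) had 51.0 and 32.1 CPM in sham 0 and sham 1 and 105 and 66.2 CPM in rmTBI 0 and rmTBI 1. Its log2 fold change was 1.05 (SE 0.34, edgeR adjusted p = 1). In both genes the 0 library was the higher of each group. Both peaks are wide with introns included, at 122870 bases for Ndst4 and 37242 for Ndst3. Per kilobase the means were 0.157 CPM in sham and 0.483 CPM in rmTBI for Ndst4, and 1.11 and 2.30 CPM for Ndst3. They lay 328 and 88 bases from the nearest sham peak. A coding peak of Prss12, which encodes the synaptic protease neurotrypsin, lay on the same chromosome (chr3:123505516-123506418) and had 2.35 and 2.27 CPM in sham against 4.40 and 5.25 CPM in rmTBI.

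Among the other higher peaks, the coding peak of Islr2, a neuronal membrane protein of axon growth, (chr9:58198601-58198782) had 14.7 and 10.4 CPM in sham 0 and sham 1 and 30.3 and 22.1 CPM in rmTBI 0 and rmTBI 1. Dkk3, a secreted Dickkopf family protein, had in its 3′ UTR peak 9.12 and 5.27 CPM in sham and 17.8 and 13.9 CPM in rmTBI. That of Tbr1, a transcription factor of deep-layer cortical neurons, had 2.78 and 3.26 CPM in sham and 5.16 and 6.22 CPM in rmTBI. These peaks had rmTBI libraries above both sham libraries in either number. So did Lhx6, a transcription factor of cortical interneurons, with 2.07 and 2.27 CPM in sham and 4.70 and 3.89 CPM in rmTBI. Gltscr1l, a chromatin remodelling subunit, had 0.855 and 0.695 CPM in sham and 2.43 and 1.91 CPM in rmTBI. At 2 peaks the sham level was very low: Tfap2b, an AP-2 transcription factor, had 0.285 and 0.476 CPM in sham against 1.06 and 2.05 CPM in rmTBI. Cyp2a5, a cytochrome P450, had 0.356 and 0.293 CPM in sham against 1.44 and 1.55 CPM in rmTBI. The log2 fold changes of the 10 peaks were between 0.91 (Tbr1) and 2.21 (Cyp2a5). The smallest edgeR adjusted p was 0.633 in the fit with the group alone.

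The 6 peaks lower in rmTBI with the smallest unadjusted p were those of Drc7, Rora, Arhgap24, Lrrc10b, Unc13c and Lamb1. The coding peak of Drc7 (chr8:95059183-95061826), a dynein regulator of motile cilia, had 10.4 and 6.59 CPM in sham 0 and sham 1 and 1.59 and 1.55 CPM in rmTBI 0 and rmTBI 1. Its log2 fold change of -2.42 (SE 0.35) had the smallest edgeR adjusted p of all rmTBI-only peaks, 0.0956, and a DESeq2 adjusted p of 0.000123. The 3′ UTR peak of Rora (chr9:69379849-69380120), a nuclear receptor strongly expressed in thalamus, had 27.4 and 16.1 CPM in sham and 5.91 and 5.14 CPM in rmTBI. Its log2 fold change was -1.98 (SE 0.33, edgeR adjusted p = 0.17, DESeq2 adjusted p = 0.000269). These peaks were thus called in rmTBI only although both rmTBI libraries had lower CPM there than both sham libraries. The log2 ratio of library 1 to library 0 was -0.62 in sham and -0.03 in rmTBI at Drc7, and -0.74 and -0.18 at Rora. It was larger in rmTBI at both peaks, as at 91.5% of the rmTBI-only peaks.

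Arhgap24, which restrains Rac GTPases, had in its coding peak 4.42 and 3.59 CPM in sham and 0.834 and 1.19 CPM in rmTBI. In the 3′ UTR of Lrrc10b, the peak had 3.71 and 2.27 CPM in sham and 0.455 and 0.899 CPM in rmTBI. Unc13c, a presynaptic vesicle priming protein, had in its coding peak 12.1 and 10.3 CPM in sham and 5.23 and 6.01 CPM in rmTBI. That of Lamb1, a laminin subunit of the basement membrane, had 5.35 and 3.33 CPM in sham and 1.74 and 1.76 CPM in rmTBI. In all 4 both rmTBI libraries were below both sham libraries, with edgeR adjusted p from 0.341 to 0.967.

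**Figure D3:**
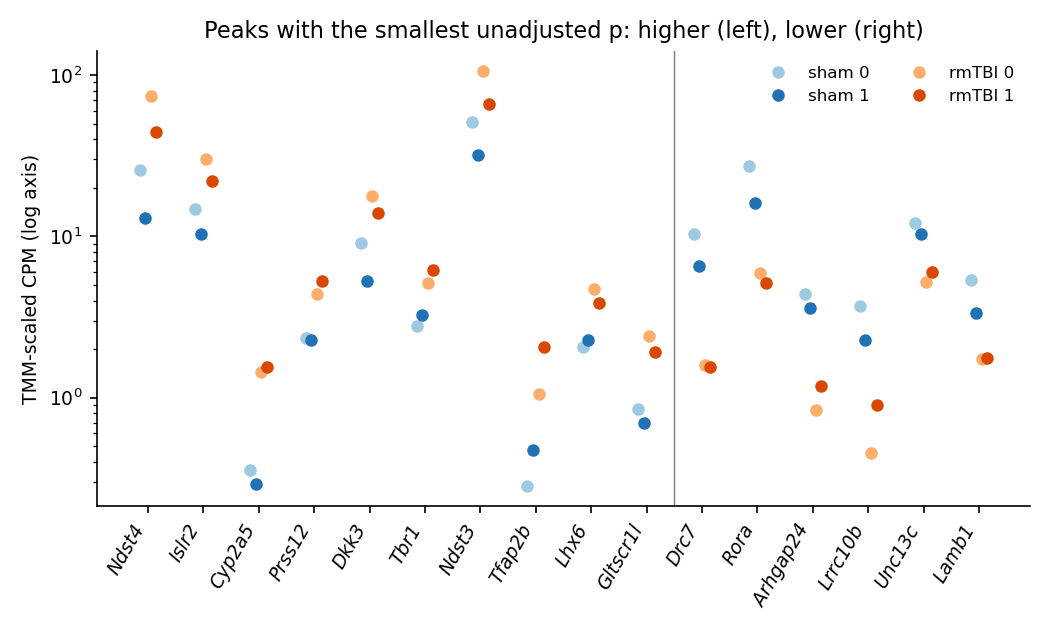
TMM-scaled CPM (log axis) in each of the 4 libraries for the 10 rmTBI-only peaks higher in rmTBI (left of the line) and the 6 lower in rmTBI (right) with the smallest unadjusted p, chosen for that difference. Both orange points lie above both blue points on the left, as for Ndst4 (74.4 and 44.3 against 25.7 and 12.9), and below them on the right, as for Drc7 (1.59 and 1.55 against 10.4 and 6.59).

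Other tested peaks of these genes are given as a description, since they share the transcript and the libraries with the peaks chosen for their small p. In 5 of the 10 genes with a higher peak there were 16 other tested peaks, of which 15 had a log2 fold change above 0, and at 7 both rmTBI libraries exceeded both sham libraries. The 3 other peaks of Ndst4 had log2 fold changes from 1.57 to 1.77 and the 2 of Ndst3 from 0.88 to 1.04. The 6 of Gltscr1l were at 0.08 to 0.26 only, against 1.48 at its rmTBI-only peak, the 2 of Lhx6 at 0.38 to 0.39 against 0.97, and 1 of the 3 of Islr2 was at -0.32. In 4 of the 6 genes with a lower peak there were 22 other peaks, all 22 with a log2 fold change below 0, and at 21 both rmTBI libraries were below both sham libraries. The 11 of Unc13c had log2 fold changes from -1.14 to -0.65 and the 3 of Rora from -2.13 to -0.56. None of these 38 other peaks reached an edgeR adjusted p under 0.05. At an unadjusted p under 0.05 edgeR put 5 of the 16 and 19 of the 22, and DESeq2 called 0 and 4, the 4 being 2 each of Rora and Lrrc10b. Some of these rows overlap one another and share reads. Over all tested peaks the groups did not overlap at 12.3% in each direction, and an unadjusted p under 0.05 was met by 0.73% higher and 2.11% lower.

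A few genes carried several rmTBI-only peaks. Fat4 had 7, and Fat1, Kcnh7, Dchs1 and Zfp408 had 5 each, followed by Zfp397 with 4. Fat4 and Dchs1 encode giant cadherins that bind each other between neighbouring cells, Fat1 is a related cadherin, Kcnh7 is a potassium channel subunit of the ERG family, and Zfp408 and Zfp397 encode zinc finger proteins. These peaks share a transcript and are not separate measurements of the condition. At 30 of the 31 peaks the log2 ratio of rmTBI to sham was larger in the 1 pair than in the 0 pair, and at 20 it was below 0 in the 0 pair and above 0 in the 1 pair.

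The first coding peak of Fat4 (chr3:38886939-38887180), which holds the GGACT run printed above, had 2.85 and 2.49 CPM in sham 0 and sham 1 and 2.43 and 4.17 CPM in rmTBI 0 and rmTBI 1. The last (chr3:39010184-39010365) had 1.07 and 0.915 CPM in sham and 0.379 and 1.55 CPM in rmTBI, its lowest and its highest value being the rmTBI libraries. One of the 7 lay on the minus strand over a plus-strand peak of the same gene, so these rows share reads. In Dchs1, the widest peak (5265 bases) had 5.63 and 2.45 CPM in sham and 5.69 and 4.39 CPM in rmTBI, so that sham 1 stood below the other libraries. In Kcnh7, the 3′ UTR peak at chr2:62699232-62699443 had 1.64 and 2.27 CPM in sham and 3.41 and 3.60 CPM in rmTBI. At this peak alone of the 31, the 0 pair had the larger log2 ratio of rmTBI to sham (0.87, against 0.57 in the 1 pair). In Zfp408, a coding peak of 270 bases had 0.855 and 0.878 CPM in sham, 0 in rmTBI 0 and 0.863 CPM in rmTBI 1. No peak of these genes had an edgeR adjusted p under 1, and 3 of the 31 had too few counts to be tested.

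**Figure D4:**
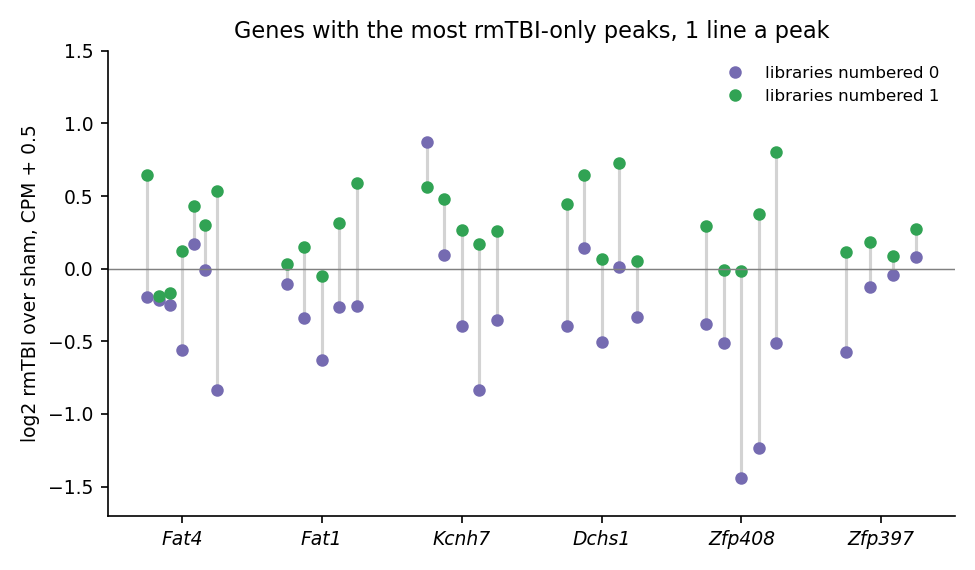
Log2 ratio of rmTBI to sham, from CPM + 0.5, at each of the 31 rmTBI-only peaks of the 6 genes with the most such peaks, with 1 line a peak joining the 0 pair and the 1 pair. The 1 pair lies above the 0 pair at 30 of the 31 peaks, the exception being a 3′ UTR peak of Kcnh7.

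Taken by summed reads, the 8 rmTBI-only peaks with the highest CPM in rmTBI were mostly very wide or in very abundant transcripts, so levels are also given per kilobase. The coding peak of Camta1, a calcium-dependent transcription factor, spanned 377133 bases and had 460 and 209 CPM in sham 0 and sham 1 and 453 and 217 CPM in rmTBI 0 and rmTBI 1, or 0.888 CPM per kilobase over the rmTBI libraries. Its libraries split by number and not by group. Wide peaks of Dmd (dystrophin), Snd1 (a component of the RNA-induced silencing complex) and Arl15 (a small GTPase) had 1.12, 2.21 and 1.47 CPM per kilobase in rmTBI, and that of Ptms (parathymosin) 29.5. In mt-Cytb, the mitochondrial cytochrome b, the coding peak was 61 bases wide and had 554 and 553 CPM in sham and 440 and 462 CPM in rmTBI, or 7389 CPM per kilobase in rmTBI. Both rmTBI libraries were below both sham libraries there, with a log2 fold change of -0.30 (SE 0.19, edgeR adjusted p = 1). Peaks of Rpl26, a ribosomal protein, and mt-Nd4l, a mitochondrial complex I subunit, had 2489 and 1217 CPM per kilobase.

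The authors' deposited table lists 277 peaks as higher and 146 as lower. The higher list held 156 of the 3971 rmTBI-only peaks (3.93%, against 0.815% of all peaks), and the lower list held none (against 0.43% of all peaks). The lists and the peak calls come from the same libraries, so nothing is read from these shares. The smallest adjusted p in the authors' deposited table at an rmTBI-only peak was 0.998. Of the 5 listed peaks with the smallest deposited p-values, the coding peak of Klf4, a zinc finger transcription factor, had 1.28 and 0.512 CPM in sham 0 and sham 1, 0 in rmTBI 0 and 1.30 CPM in rmTBI 1. Slc16a6, a monocarboxylate transporter, had in its 3′ UTR peak 1.85 and 1.10 CPM in sham and 0.152 and 1.55 CPM in rmTBI. That of Tmem170, a membrane protein, had 1.78 and 1.72 CPM in sham and 0.152 and 1.87 CPM in rmTBI. In each the rmTBI 0 library was the lowest and the rmTBI 1 library lay within or near the sham libraries. Zfp82, a zinc finger protein, had in its coding peak 2.14 and 0.988 CPM in sham and 0.531 and 2.41 CPM in rmTBI. Usp2, a deubiquitinase, had in its 3′ UTR peak 4.49 and 2.71 CPM in sham and 1.21 and 3.49 CPM in rmTBI. Their log2 values in the authors' deposited table were 5.46 for Klf4, 4.15 for Slc16a6, 3.72 for Tmem170, 3.34 for Zfp82 and 2.30 for Usp2. Over all peaks the deposited values went with the difference between the 1 to 0 ratios of rmTBI and sham (Pearson correlation 0.99). From CPM + 0.5, that difference was 2.66, 2.21, 1.90, 2.32 and 1.86 at these peaks in the same order. The edgeR log2 fold change of rmTBI against sham is another measure, and it was -0.23, -0.63, -0.66, 0.04 and -0.53.

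By gene list, no rmTBI-only peak had an edgeR adjusted p under 0.05, and each list is described by its counts beside the median of -0.03 over all tested rmTBI-only peaks and 0.02 over all peaks. Immediate early genes, which neurons switch on with activity, had 11 tested rmTBI-only peaks, 7 of them higher in rmTBI, with a median log2 fold change of 0.12. The coding peak of Npas4, an activity-dependent transcription factor, had 1.64 and 1.68 CPM in sham and 2.88 and 3.78 CPM in rmTBI, both rmTBI libraries above both sham libraries (log2 fold change 1.01, SE 0.37, edgeR adjusted p = 1). Egr4, a zinc finger transcription factor, had in its 3′ UTR peak 0.285 and 0.549 CPM in sham and 0.986 and 1.44 CPM in rmTBI. Dusp1, a phosphatase of MAP kinases, had in its coding peak 0.428 and 0.585 CPM in sham and 1.29 and 1.19 CPM in rmTBI. Over all 78 peaks of the list, chosen or not, 67 were higher in rmTBI, with a median of 0.36 and none called by edgeR.

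Receptors and synaptic proteins came next. Glutamate receptors had 6 of 9 tested peaks higher (median log2 fold change 0.17), GABA receptors and their enzymes 6 of 8 (0.13), and postsynaptic scaffold and adhesion genes 11 of 19 (0.11). The 3′ UTR peak of Grik3, a kainate receptor subunit, had 3.99 and 2.45 CPM in sham and 4.47 and 4.14 CPM in rmTBI. That of Gad2, which makes GABA, had 25.3 and 17.3 CPM in sham and 28.5 and 19.8 CPM in rmTBI. That of Dlgap1, a postsynaptic scaffold protein, had 6.34 and 3.59 CPM in sham and 6.75 and 7.23 CPM in rmTBI. Both rmTBI libraries were above both sham libraries in Grik3 and Dlgap1, and the groups overlapped in Gad2. Presynaptic release genes had 4 of 14 higher and a median of -0.18, although 106 of all 171 peaks of that list were higher. Besides Unc13c, the 3′ UTR peak of Syt2, a calcium sensor of fast release, had 8.98 and 6.88 CPM in sham and 4.17 and 3.96 CPM in rmTBI (log2 fold change -0.96, SE 0.28, edgeR adjusted p = 1).

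Ion channels had 8 of 17 tested peaks higher (median -0.01), axon guidance genes 9 of 17 (0.02) and chromatin regulators 18 of 28 (0.07). Kcnc2, a fast potassium channel, had in its coding peak 2.00 and 1.68 CPM in sham and 0.531 and 1.04 CPM in rmTBI. Scn3a, a sodium channel, had in its coding peak 8.34 and 5.45 CPM in sham and 4.02 and 6.01 CPM in rmTBI, so that its groups overlapped. Chd5, a neuronal chromatin remodeller, had in its coding peak 39.3 and 27.1 CPM in sham and 54.7 and 38.1 CPM in rmTBI, and that of Tet1, a DNA demethylase, had 0.998 and 0.988 CPM in sham and 1.67 and 1.80 CPM in rmTBI. Of the m6A machinery itself, 3 genes held 4 rmTBI-only peaks: Wtap, the adaptor of the methyltransferase complex, Cbll1, a further subunit, and Ythdc2, a reader. The Wtap 3′ UTR peak had 5.20 and 4.57 CPM in sham and 2.73 and 4.60 CPM in rmTBI, overlapping between groups, and 1 of the 4 peaks was higher (median -0.17). Genes of tau, amyloid and other neurodegeneration had 2 of 5 higher (-0.10), and the coding peak of Adam17, a membrane sheddase, had 13.0 and 6.15 CPM in sham and 8.34 and 5.76 CPM in rmTBI.

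Markers of cell types and neighbouring regions were read in the same way. At least 1 peak was present for 18 of 19 cortical neuron markers, 17 of 19 thalamic and 12 of 14 striatal ones. The presence of a peak thus does not tell these regions apart. Of 8 rmTBI-only peaks in oligodendrocyte genes, 7 were lower in rmTBI (median -0.60), as were 44 of all 57 peaks of the list. The coding peak of Bcas1, a myelin-associated protein, had 91.5 and 59.0 CPM in sham and 53.7 and 38.5 CPM in rmTBI (log2 fold change -0.71, SE 0.31, edgeR adjusted p = 1). That of Sox10, the oligodendrocyte lineage factor, had 17.0 and 9.07 CPM in sham and 10.6 and 8.56 CPM in rmTBI. Summed over its peaks, some of which overlap, the list had 2392 and 2304 CPM in sham and 1578 and 1534 CPM in rmTBI. In bulk tissue, fewer cells of a type, less RNA per cell and a smaller methylated share of the RNA cannot be told apart here.

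Thalamic markers had 3 tested rmTBI-only peaks, all lower (median -0.79), Rora among them. Over the whole list, 66 of 68 tested peaks were lower with a median of -2.30. Of these 68, edgeR called 22, against 29 of all 33415 peaks tested (0.0868%). The lists were chosen with earlier results of these data known, so these counts are a description. The list's summed level was 2270 and 2665 CPM in sham and 468 and 537 CPM in rmTBI. Striatal markers had 1 of 5 higher (-0.60), with the 3′ UTR peak of Rgs9, a regulator of G protein signalling, at 3.42 and 2.16 CPM in sham and 0.758 and 1.12 CPM in rmTBI, and the list's summed level was 2967 and 2860 CPM in sham and 1675 and 1578 CPM in rmTBI. Markers of the ependyma, a ciliated cell layer, and of the choroid plexus had 1 rmTBI-only peak, of Foxj1, with 0.641 and 0.293 CPM in sham and 0.607 and 0.755 CPM in rmTBI. Their summed level was 87.2 and 101 CPM in sham and 25.02 and 28.1 CPM in rmTBI. These levels moved with the lower peaks of Rora and Drc7, and their part in those differences was not tested.

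Cortical neuron markers had 4 of 8 higher (0.05), with a summed level of 3046 and 3192 CPM in sham and 4154 and 4175 CPM in rmTBI. It was higher in both rmTBI libraries, as was the peak of Tbr1, and its part in that difference was not tested. Neurod2, a neuronal transcription factor, had in its 3′ UTR peak 5.27 and 3.18 CPM in sham and 6.67 and 6.33 CPM in rmTBI. Astrocyte genes had 2 of 4 higher (-0.03), vascular genes 0 of 5 (-0.26) and genes of meninges and blood 2 of 3 (0.56). Microglia and macrophage genes had 3 of 4 higher (0.42), with the coding peak of Ctss, a lysosomal protease, at 10.3 and 5.74 CPM in sham and 11.5 and 9.96 CPM in rmTBI. The only peak in an inflammation or interferon gene was the 3′ UTR peak of Myd88, an adaptor of Toll-like receptors, with 0.784 and 0.878 CPM in sham and 0.303 and 0.755 CPM in rmTBI.

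**Figure D5:**
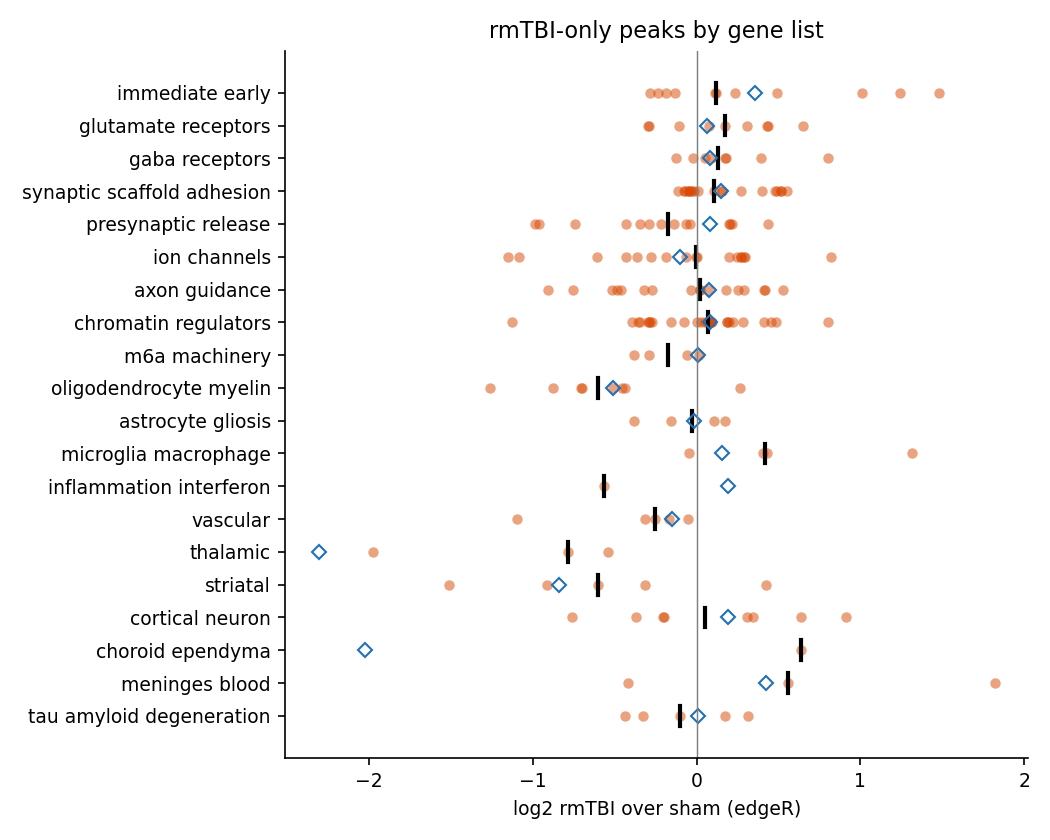
Log2 fold change of rmTBI against sham (edgeR) for each tested rmTBI-only peak (orange points) by gene list, with the median of those peaks (black bar) and the median over all tested peaks of the same genes (blue diamond). The lists lie around 0 apart from a few, with the oligodendrocyte median at -0.60 and the thalamic diamond at -2.30.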

How the data were processed

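Counts, peak sets and classes came from 1 table over all 4 libraries. The authors deposited whole-number read counts per peak, not normalized, and, for each peak, a log2 value and p-values (plain and adjusted) whose test is unnamed. Per the submitters' processing notes, STAR, DESeq2 and GRCm39 were used, without versions or roles. Neither peak caller nor read counter nor strand setting was stated. Per the file headers, peaks were called in each condition and stacked. Of the peaks matched to a RefSeq gene, 98.3% overlapped its span in GRCm38.p6, so the deposited positions were read as GRCm38.

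Overlap was at least 1 base on the same strand (bedtools 2.31.1). Counts were scaled by TMM and tested over all peaks with edgeR 4.0.16 (R 4.3.3; quasi-likelihood, filterByExpr, group alone, Benjamini-Hochberg over 33415 peaks, threshold 0.05), and ratios used CPM plus 0.5. With 2 libraries a group, an exact permutation test cannot go below p = 0.333. Alternatives were DESeq2 1.42.0, library-size scaling, other count filters, the label number as a block, each library left out, and other overlap rules.

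The members and the 20 gene lists were chosen with earlier results of these data known. Named were the 8 peaks with the highest mean CPM in rmTBI, the 10 higher and 6 lower with the smallest unadjusted p, the 6 genes with the most peaks, up to 4 peaks of each list by unadjusted p, up to 5 of each deposited list by adjusted p (ties by p), and the 3 peaks on each side of the rule's limit.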

Additional observations from a re-analysis of the deposited data

Results flagged for a closer look

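The rmTBI-only peaks went opposite ways in the pairs of libraries with the same label number. Their median log2 ratio of rmTBI to sham was -0.28 between the libraries numbered 0 and 0.23 between the libraries numbered 1. The difference was not tested, because each group has 1 library of each number, and the labels do not say what the numbers stand for.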

How the results depend on the processing

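No rmTBI-only peak passed in edgeR with TMM scaling, with library-size scaling, without a filter or with at least 10 counts in every library. DESeq2 called 3, and leaving out 1 library gave 2 to 4: Drc7 whichever library was left out, Rora without sham 1, rmTBI 0 or rmTBI 1, Ndst4 without sham 0 or rmTBI 1, and a 3′ UTR peak of Fgd3, named for this call alone, without rmTBI 1. Over the whole table the 29 calls became 2 with library-size scaling, 131 with DESeq2, 0 with at least 10 counts in every library (855 at an unadjusted p under 0.05) and 82 to 122 without 1 library. With the label number as a replicate block, 125 rmTBI-only peaks passed (3.30% of those tested, 65 higher and 60 lower), against 3553 peaks of the table (10.6%). Of the 16 peaks named for a small p, which were chosen for their difference, this fit called 13 and did not call 3. This fit leaves 1 residual degree of freedom, and the labels do not say that a number marks a shared mouse or day. Deviations of same-numbered libraries from their group means had a correlation of 0.60 over the tested peaks. The median log2 fold change of the rmTBI-only peaks was between -0.28 (without sham 1) and 0.26 (without sham 0). No sign of the 16 peaks named for a small p was reversed by an alternative in which they were tested. This could hardly have gone otherwise, since both rmTBI libraries lay on the same side of both sham libraries at each of them. The share with a larger 1 to 0 ratio in rmTBI was 90.5% with at least 10 counts in every library. Other overlap rules kept 3927 peaks (either strand), 3723 (no sham peak within 100 bases) or 5073 (no sham peak over 50% of the peak). Low counts limit single peaks: 993 of the rmTBI-only peaks had under 10 counts in rmTBI 0.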
